A study of Mus musculus with 8 samples.

Results

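The genes described here are the translation initiation and elongation factors, taken as every gene whose symbol starts with Eif followed by a digit, or with Eef1 or Eef2, on a probe set that the array's annotation gave to 1 gene alone. They are 49 of the 8251 genes that had such a probe set, and 66 probe sets carry them. Of these, 38 genes, read on 44 probe sets, had a mean signal of at least 200 over all arrays and were tested beside the other genes above that level, 4670 genes in all. The initiation factors make up 41 of the 49 genes and the elongation factors with their modifying enzymes the other 8. RNA was measured on 8 single-colour Affymetrix mouse arrays, 1 sample an array. The cells are named mouse aortic endothelial cells, which form the inner lining of the aorta. Of the samples, 4 were taken from a mature monolayer at confluency, and 4 from sparser, subconfluent dishes covered to less than 50%. The labels give an equal cell number for every sample, with no treatment, strain or genotype named. The arrays of each group are numbered 1 to 4 by experiment in the labels.

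In background, translation starts when eIF2, carrying GTP and the initiator methionyl-tRNA, joins the small ribosomal subunit together with eIF1, eIF1A, eIF3 and eIF5. The eIF4F complex, made of a cap-binding protein, the scaffold eIF4G and the helicase eIF4A, brings the messenger RNA, and eIF5B then joins the large subunit. eIF2B reloads eIF2 with GTP, and stress kinases slow this step by phosphorylating eIF2. During elongation eEF1A delivers aminoacyl-tRNAs, the eEF1B subunits recharge eEF1A with GTP, and eEF2 moves the ribosome along the messenger RNA. The comparison asks how the RNA of these factors differs between crowded and sparse cultures.

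The deposited values are signals, 1 value per probe set, which the authors scaled to a target of 500 on every array. Signals of different probe sets depend on the probes and are not compared with each other. Differences below are subconfluent minus confluent on the scale log2(signal + 50), with the standard error (SE) of the limma fit. Fold changes come from the same scale. Adjusted p-values were adjusted over all 6007 tested probe sets, and a gene rose or fell where this p was under 0.05. Nothing in the labels says that the arrays of a group came from separate cell isolations, so the p-values measure only the spread between these arrays. A second fit had the experiment number as a block, because arrays of the same number deviated together. Of the chip lots only A and C held both groups, so a fit with the lot as a block compares the groups on those arrays. Lot A held Confluent 1 and Subconfluent 1 alone, so its values repeat the differences of experiment 1.

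Scale factors lay between 3.05 and 13.3 and array medians between 169 and 187. Of the endothelial markers listed, only Ets1, Eng and Cd34 of 13 on the array had a mean signal of at least 200. The defining markers Pecam1, Cdh5, Kdr, Tek, Tie1 and Vwf were below it, with none at 0. The summed signal of the endothelial list was 2028 to 3908 on the confluent arrays and 2438 to 4066 on the subconfluent arrays. Of the markers of fibroblasts and pericytes, 9 of 14 reached that level. Their sum was 62635 to 93405 on the confluent arrays and 35957 to 50812 on the subconfluent arrays, without overlap. Dcn, Col1a2, Lum and Col3a1 fell, 4 of the 9, against 4.39% of all tested genes. With the experiment number as a block 6 of the 9 fell, against 12.1% of all tested genes, Pdgfra and Col1a1 being the others. Fbln2 (0.20, adjusted p = 0.513) and Fbln1 (0.14, adjusted p = 0.646) were higher in subconfluent cells and did not pass. In the unpaired fit only Dcn kept its call with each array left out (adjusted p of up to 0.00739). With no signal filter Lum (0.0567) and Col3a1 (0.0602) did not pass. Lum, with means of 2061 and 153, reached the signal minimum through its confluent signals. Smooth muscle markers reached it in 2 of 6 genes, with sums of 1215 to 3022 against 1408 to 9174. These were Tagln (1.47, adjusted p = 0.108, and 0.0102 with the block) and Acta2 (1.14, 0.228 and 0.0172), both higher in subconfluent cells in all 4 experiments. The macrophage list reached it in 1 of 7 genes, with sums of 2599 to 3945 against 1851 to 2478. That gene, Cd14, had a difference of -0.70 (adjusted p = 0.0563, and 0.0228 with the block). The part of these markers in the results below was not tested. In such bulk RNA, fewer cells of a type and less RNA per cell cannot be told apart.

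The sequences just upstream of 4 members whose RNA passed a test are shown. Eif2b5, Eif3b, Eif3d and Eif3j1, which rose only with the experiment block, are left out. Of the 4 shown, Eif2s3x, Eif2b1 and 1 probe set of Eif4e2 were higher in subconfluent cells, and Eif4g3 was lower with the experiment block. Each is the 250 bases before the annotated start from RefSeq (build GRCm38.p6), written 5′ to 3′ on the gene's strand, at chrX:94212652-94212901 on the minus strand for Eif2s3x, chr5:124579132-124579381 on the minus strand for Eif2b1, chr1:87213661-87213910 on the plus strand for Eif4e2 and chr4:137993205-137993454 on the plus strand for Eif4g3. Capitals mark a match to the C/EBP-ATF motif named below.
Eif2s3x: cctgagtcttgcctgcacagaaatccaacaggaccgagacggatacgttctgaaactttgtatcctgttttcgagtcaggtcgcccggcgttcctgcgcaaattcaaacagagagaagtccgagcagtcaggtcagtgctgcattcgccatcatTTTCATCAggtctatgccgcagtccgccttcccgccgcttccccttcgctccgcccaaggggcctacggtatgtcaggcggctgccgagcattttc
Eif2b1: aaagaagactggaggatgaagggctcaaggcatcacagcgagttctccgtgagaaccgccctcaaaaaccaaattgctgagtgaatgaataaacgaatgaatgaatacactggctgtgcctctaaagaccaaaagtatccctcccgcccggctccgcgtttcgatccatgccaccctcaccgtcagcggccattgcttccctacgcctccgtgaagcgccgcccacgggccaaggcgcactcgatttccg
Eif4e2: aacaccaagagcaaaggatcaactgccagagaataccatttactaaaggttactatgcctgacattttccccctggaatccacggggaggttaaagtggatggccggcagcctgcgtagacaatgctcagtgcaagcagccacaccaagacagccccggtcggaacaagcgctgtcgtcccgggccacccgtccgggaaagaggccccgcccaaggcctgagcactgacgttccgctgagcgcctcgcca
Eif4g3: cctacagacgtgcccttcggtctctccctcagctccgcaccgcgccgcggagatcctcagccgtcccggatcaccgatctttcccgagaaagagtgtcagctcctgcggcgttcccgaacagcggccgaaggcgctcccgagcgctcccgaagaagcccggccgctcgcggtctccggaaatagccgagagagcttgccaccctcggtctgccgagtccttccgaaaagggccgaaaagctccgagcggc

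Promoters were found for 41 of the 49 members, and 4 motifs were searched in them on both strands, each on its own. Eef1akmt1, Eef1d, Eef1g, Eif1a, Eif3e, Eif4ebp1, Eif4g2 and Eif6 had no entry in the table. The 41 include members below the signal minimum, so the shares of tested genes given below are not of a like set. The E-box CACGTG, which MYC-family proteins can bind, was found upstream of 9 of the 41 (22.0%). It was found upstream of 6.86% of 27025 genes in the RefSeq table and of 11.4% of the 3819 tested genes found there. Its holders were Eef2, Eef2k, Eif1b, Eif3f, Eif3k, Eif4a1, Eif4e, Eif4h and Eif5a. Of these Eef2, Eif1b, Eif3k and Eif4a1 were tested, and none of them passed in either fit. The ETS-type motif CCGGAAG was in 9 of 41 (22.0%), against 7.83% of all genes and 18.0% of the tested ones. Its holders were Eif1ax, Eif1b, Eif3c, Eif3d, Eif3l, Eif3m, Eif4e2, Eif4ebp2 and Eif5a. In Eif4e2 the motif is upstream of a start other than the one printed, the most upstream of 3. The cyclic AMP response element TGACGTCA was in 0 of 41, against 1.77% of all genes and 3.06% of the tested ones. The C/EBP-ATF motif TGATGNAA was in 2 of 41 (4.88%), Eef2k and Eif2s3x, against 3.91% and 2.28%. In Eif2s3x it lies on the opposite strand, 96 bases before the start. These matches are letters in a window and say nothing of binding.

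Across the set, more factors had higher than lower RNA levels in subconfluent cells, and few single genes passed. Eif2s3x, Eif2b1 and Eif6 rose, each by about 1.5-fold, and 0 genes fell. That is 3 of 38 higher (7.89%), against 2.83% of all tested genes, and 0 lower, against 4.39%. At an unadjusted p under 0.05 there were 8 members higher and 1 lower, 23.7% of the members together, against 27.2% of all tested genes. Differences were positive in 25 members and negative in 13, with a median of 0.14 against 0.0045 over all tested genes (positive in 65.8% and 50.5%). Leaving out 1 array gave 3 higher without Confluent 2, 1 without Confluent 4 and 0 without any other array. With the experiment number as a block, 8 members rose (21.1%, against 10.1% of all tested genes) and 1 fell (2.63%, against 12.1%). Those that rose were Eif2s3x, Eif2b1, Eif2b5, Eif3b, Eif3d, Eif3j1, Eif6 and Eef1d, and the 1 that fell was Eif4g3. In that fit 4 rose without experiment 1, 8 without experiment 2, 0 without experiment 3 and 3 without experiment 4. With the chip lot as a block, 3 rose (7.89%, against 6.17%) and 1 fell (2.63%, against 5.65%). The signals of the groups did not overlap in 6 members, all higher in subconfluent cells (15.8%, against 8.5%), and in 0 members that were lower (against 9.25%). Over all probe sets, 2.75% of 6007 were higher and 4.06% were lower.

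**Figure D1:**
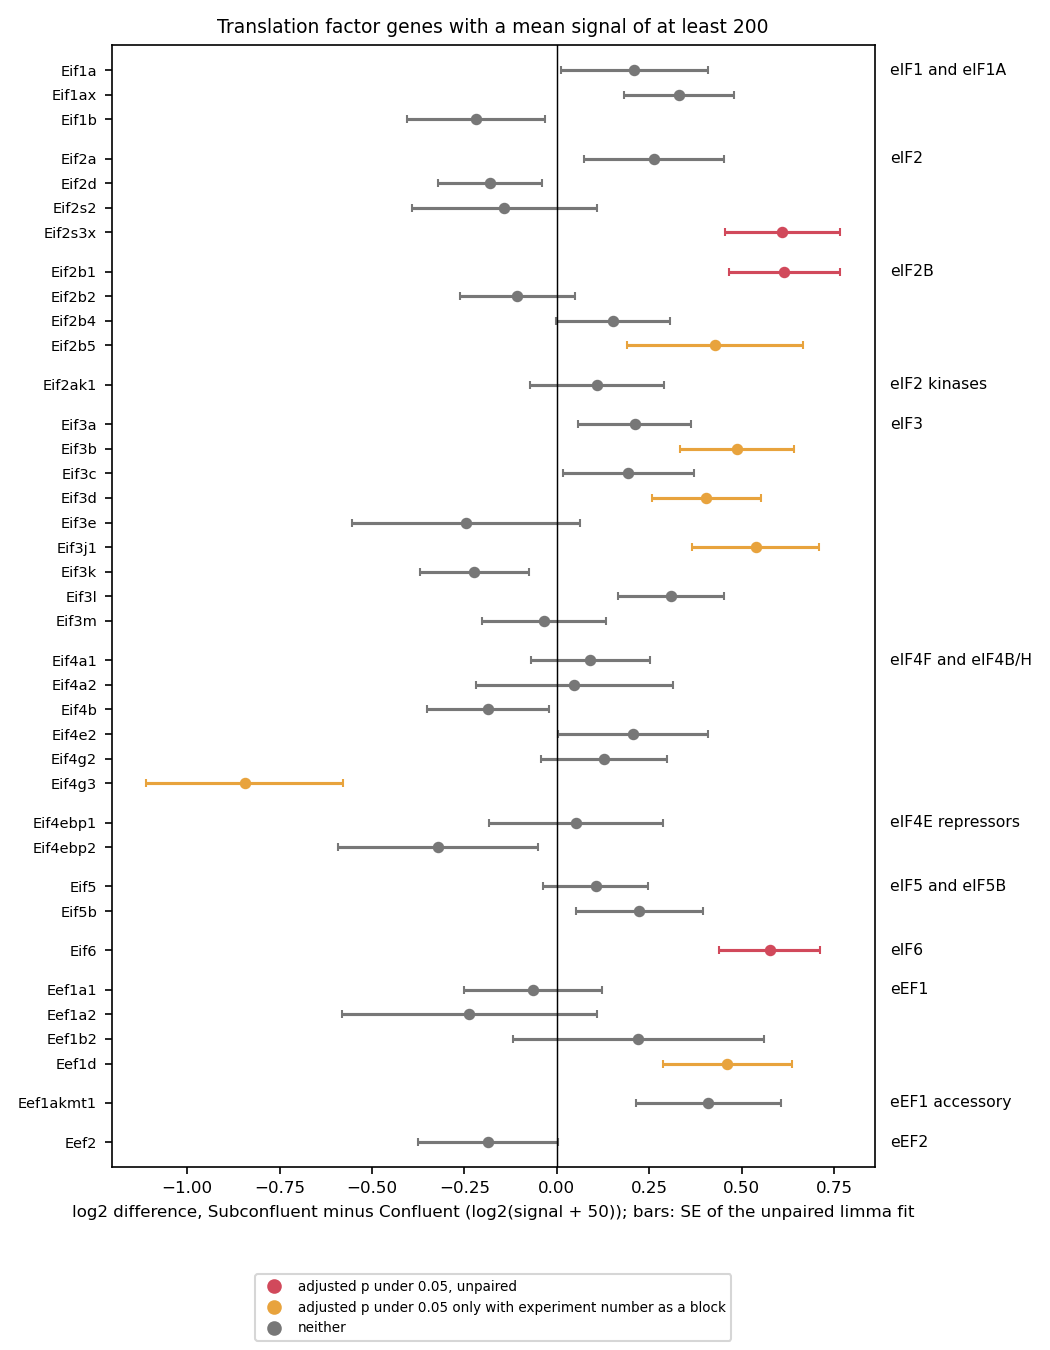
Subconfluent minus confluent difference on the log2(signal + 50) scale for each of the 38 tested members, grouped by factor complex, with SE of the limma fit as bars and colours for passing unpaired, only with the experiment block, or in neither fit. The 3 members that rose are in eIF2, eIF2B and eIF6, and the lowest value, -0.84, is that of Eif4g3.

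Of the factors that scan for the start codon, eIF1 and eIF1A, 3 genes were tested and 0 rose or fell, with 1 at an unadjusted p under 0.05. Eif1ax, the X-linked gene of eIF1A, had signals of 1213, 1559, 1291 and 1577 on the confluent arrays and 1898, 1666, 1877 and 1671 on the subconfluent arrays. All subconfluent signals lay above all confluent ones, but the difference of 0.33 ± 0.15 (SE, n = 4 a group) did not pass (adjusted p = 0.189). Its other probe set gave 0.43 (adjusted p = 0.151). Eif1a, a second gene of eIF1A, had 1661, 1281, 1411 and 1759 against 2170, 1308, 1537 and 2195, so that the groups overlapped (0.21, adjusted p = 0.566). Eif1b, a gene of eIF1, went the other way (-0.22, adjusted p = 0.511).

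In eIF2, which carries the initiator tRNA, the gene of the gamma subunit rose. Eif2s3x, the X-linked gene of this subunit, which binds GTP and the tRNA, had signals of 2178, 3029, 2266 and 2858 on the confluent arrays. On the subconfluent arrays it had 3534, 4069, 3914 and 4226. Every subconfluent signal was above every confluent one, and the mean rose from 2583 ± 424 to 3936 ± 297 (SD, n = 4 each), a 1.53-fold change. The log2 difference was 0.61 ± 0.16 (SE, adjusted p = 0.0416), and 0.00953 with the experiment block. Within the chip lots that held both groups it was 0.69 in lot A and 0.83 in lot C. The call was lost without any array but Confluent 2, with an adjusted p of up to 0.108. It was also lost with no filter on low signals (adjusted p = 0.0642).

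Eif2s2, the beta subunit, gave 289, 413, 229 and 368 against 477, 269, 226 and 216, with overlapping groups (-0.14, adjusted p = 0.777). Eif2s3y, the Y-linked gene of the gamma subunit, was below the signal minimum, with a mean of 15.7. Eif2s1, the gene of the alpha subunit, was not among the members. Eif2a and Eif2d, which can deliver initiator tRNA without eIF2, had differences of 0.26 (adjusted p = 0.425) and -0.18 (adjusted p = 0.468).

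Among the subunits of eIF2B, the exchange factor that reloads eIF2 with GTP, the alpha subunit gene rose. Eif2b1 had signals of 544, 611, 608 and 760 on the confluent arrays and 937, 1061, 909 and 1044 on the subconfluent arrays. The groups were apart, with means of 631 ± 91.5 and 988 ± 75.8 (SD, n = 4 each), a 1.53-fold change. Its log2 difference was 0.61 ± 0.15 (SE, adjusted p = 0.0365, and 0.0121 with the experiment block). It was 0.73 in chip lot A and 0.64 in chip lot C. The call was lost without Confluent 1, Confluent 3 or any subconfluent array (adjusted p of up to 0.0966) and with no signal filter (0.0595).

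Eif2b5, the catalytic epsilon subunit, had 300, 656, 557 and 490 against 464, 747, 788 and 722. These groups overlap, since both arrays of experiment 1 were low, but each subconfluent signal exceeded the confluent signal of the same experiment. Its difference of 0.43 ± 0.24 had an adjusted p of 0.288, and 0.0493 with the experiment block. A second probe set gave 0.40, with 0.229 and 0.0748. Without experiment 1 the block fit gave an adjusted p of 0.141 for the first set.

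The beta subunit Eif2b2 (-0.11, adjusted p = 0.721) and the delta subunit Eif2b4 (0.15, adjusted p = 0.592) did not pass. Eif2b3, the gene of the gamma subunit, was not among the members. Whether the changes of the subunits differ from each other was not tested.

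Of the 4 kinases that phosphorylate eIF2, only Eif2ak1, the heme-regulated kinase, was above the signal minimum. It had 668, 806, 597 and 1006 against 838, 786, 954 and 711, with overlapping groups (0.11, adjusted p = 0.763). Eif2ak2 (the kinase PKR, which senses double-stranded RNA), Eif2ak3 (the kinase PERK of the endoplasmic reticulum) and Eif2ak4 (the kinase GCN2, which senses uncharged tRNA) had mean signals of 153, 116 and 121. Without the filter their adjusted p-values were 0.939, 0.800 and 0.904.

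**Figure D2:**
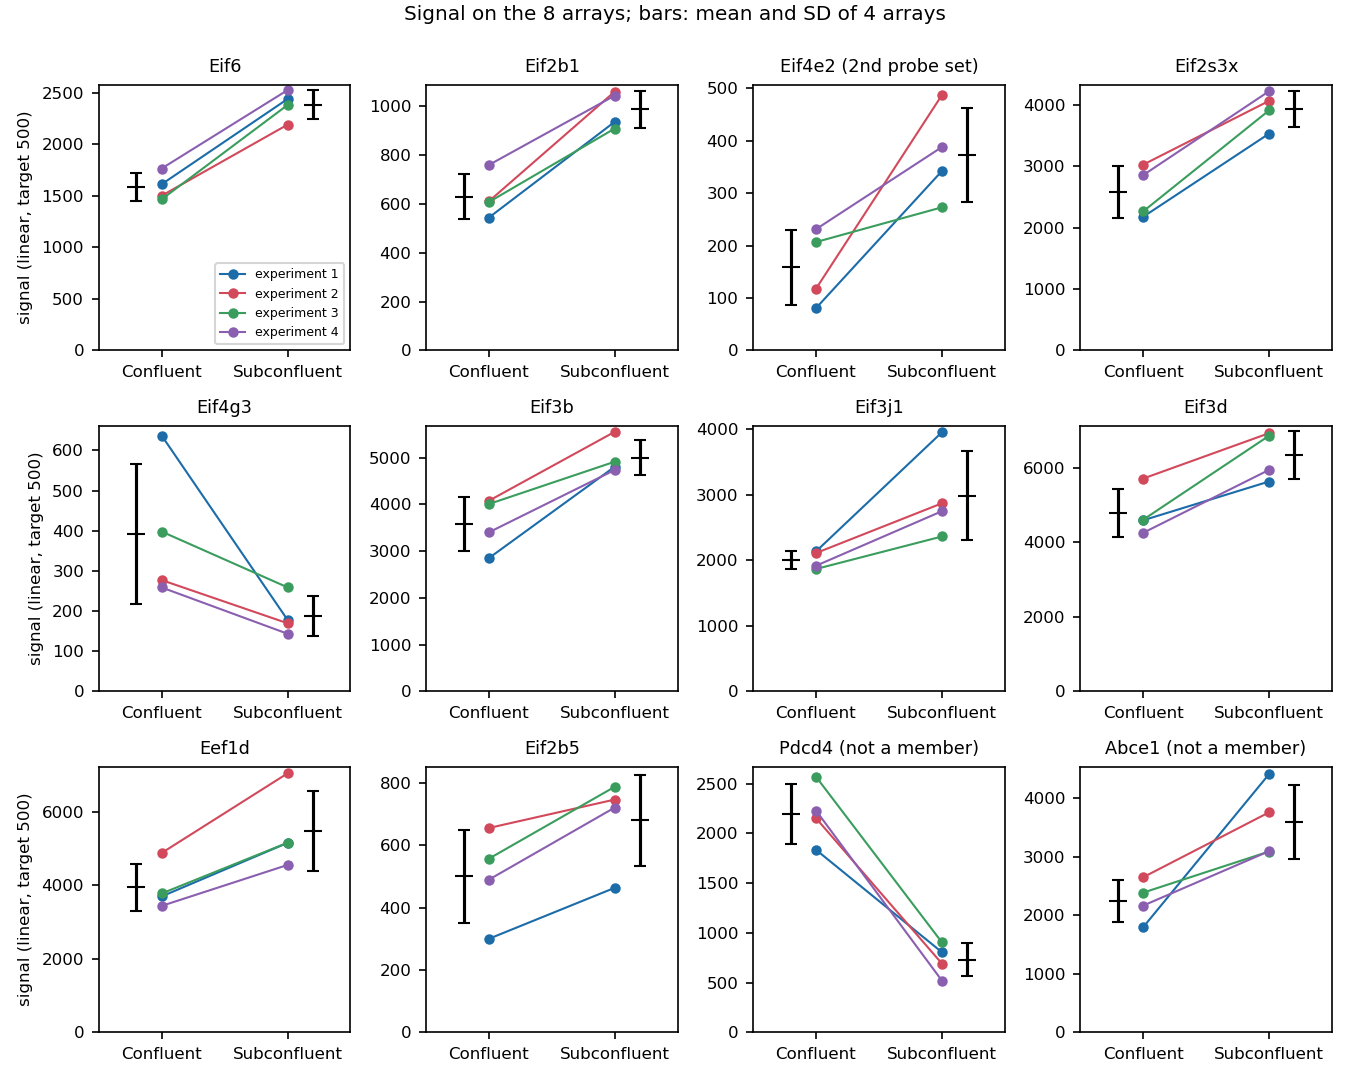
Signal on each of the 4 confluent and 4 subconfluent arrays for members and 2 related genes that the text describes, in signal units scaled to 500 by the authors. Points are arrays, joined and coloured by experiment number, and black bars are the mean ± SD. The groups do not overlap for Eif6, Eif2b1 or Eif2s3x, and they do for Eif2b5 and Eif4g3.

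eIF3, the largest initiation factor, holds the small ribosomal subunit and links it to the messenger RNA through eIF4G. Of its 10 genes on the array 9 were tested, 0 passed in the unpaired fit and 3 had an unadjusted p under 0.05. With the experiment block, Eif3b, Eif3d and Eif3j1 rose. The median difference was 0.21, with 6 subunits positive and 3 negative. For 7 of the 9 the sign did not change from experiment to experiment. These 7 include Eif3k, which was lower in subconfluent cells throughout, and Eif3c, whose smallest value was only 0.001. No share of all tested genes is given for this count.

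Eif3b, a core scaffold subunit, had 2851, 4079, 4009 and 3403 on the confluent arrays and 4808, 5555, 4915 and 4738 on the subconfluent arrays. The subconfluent signals all lay above the confluent ones (0.49 ± 0.15, adjusted p = 0.0793, and 0.0224 with the block). It was 0.74 in chip lot A and 0.26 in chip lot C, and 0.29 to 0.74 in the 4 experiments.

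Eif3j1, a loosely bound subunit that sits near the messenger RNA entry channel, had 2137, 2112, 1869 and 1918 against 3956, 2872, 2365 and 2751. The groups were apart and Subconfluent 1 was the highest (0.54 ± 0.17, adjusted p = 0.0818, and 0.0225 with the block). Eif3d, a subunit that can bind the messenger RNA cap, had 4596, 5716, 4610 and 4259 against 5638, 6936, 6867 and 5950. Here Confluent 2 lay above Subconfluent 1, and the array of experiment 2 was the highest in both groups (0.40 ± 0.15, adjusted p = 0.111, and 0.0314 with the block).

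Eif3l, a peripheral subunit, had signals of 7409, 8696, 7295 and 6714 against 9008, 9453, 10902 and 8028. It was higher in subconfluent cells in each experiment, with overlap at Confluent 2 (0.31 ± 0.14, adjusted p = 0.205, and 0.0809 with the block). The core subunits Eif3a and Eif3c had differences of 0.21 (adjusted p = 0.435) and 0.19 (adjusted p = 0.544). Negative values were those of Eif3e (-0.25, adjusted p = 0.672), Eif3k (-0.22, adjusted p = 0.378) and Eif3m (-0.03, adjusted p = 0.928). Eif3f had a mean signal of 154 and was not tested.

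Around eIF4F, the complex that binds the messenger RNA cap and unwinds the leader, 0 of 6 tested genes passed in the unpaired fit and 1, Eif4g3, had an unadjusted p under 0.05. Eif4g1, another gene of the scaffold eIF4G, was not among the members. Eif4g3, a paralogue of the scaffold eIF4G, had 637, 277, 398 and 259 on the confluent arrays and 178, 170, 259 and 144 on the subconfluent arrays. Subconfluent 3 overlapped Confluent 4, and Confluent 1 was the highest of all. Every subconfluent signal but that of Subconfluent 3 was below the signal minimum, with a group mean of 188, which limits what the comparison can show. The difference was -0.84 ± 0.27, with an adjusted p of 0.0784, 0.0231 with the experiment block and 0.0344 with the chip lot block. It was lower in subconfluent cells in all 4 experiments, between -0.54 and -1.59, the last being the value of experiment 1 and of chip lot A. Within chip lot C it was -0.87.

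Eif4g2, a paralogue that lacks the cap-binding protein's site, had a difference of 0.13 (adjusted p = 0.692). The helicases Eif4a1 (0.09, adjusted p = 0.780) and Eif4a2 (0.05, adjusted p = 0.937) did not pass. Eif4b, which stimulates the helicase, had 4252, 4120, 4408 and 3359 against 3101, 3070, 4390 and 3676 (-0.19, adjusted p = 0.526). Its groups overlapped, with experiment 3 high in both.

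For Eif4e2, a cap-binding protein that can act as a repressor of translation, 1 of the 2 tested probe sets passed. The set that stands for the gene had 310, 329, 313 and 296 against 338, 523, 408 and 248, with overlap (0.21 ± 0.20, adjusted p = 0.582). The other set had 80.6, 118, 207 and 231 against 342, 487, 273 and 388, with all subconfluent signals above all confluent ones. This set rose 2.08-fold (1.06 ± 0.27, adjusted p = 0.0414, and 0.0202 with the experiment block). Its name carries the maker's mark for sequence shared within a family, and its confluent signals were near or below the signal minimum. With means of 159 and 373, this set reached the minimum only through the subconfluent group, where it was high. With no signal filter its adjusted p was 0.0813. In chip lot A it was 1.59 and in chip lot C 0.55, and with the lot as a block the adjusted p was 0.0897. The call was lost without any array but Confluent 4 (adjusted p of up to 0.109), and the mean over both sets gave an adjusted p of 0.0704. Eif4e, the main cap-binding protein, and Eif4h had mean signals of 82.9 and 23.2 and were not tested.

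The repressors that hold eIF4E away from eIF4G did not pass. Eif4ebp2 had 2010, 1766, 2974 and 1620 against 1793, 1014, 2500 and 1503, lower in each experiment but with overlap (-0.32 ± 0.27, adjusted p = 0.504). Its second probe set went both ways, higher in experiments 1 and 2 and lower in experiments 3 and 4 (-0.09, adjusted p = 0.903). Eif4ebp1 gave 0.05 (adjusted p = 0.923), and Eif4enif1, which carries eIF4E to the nucleus, had a mean signal of 48.9.

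The factors of subunit joining showed small differences. Eif5, which makes eIF2 hydrolyse GTP, had 836, 841, 850 and 906 against 960, 790, 1040 and 932 (0.10, adjusted p = 0.696). Eif5b, which joins the large subunit, had 663, 470, 569 and 580 against 694, 653, 838 and 529 (0.22, adjusted p = 0.462). In both genes the groups overlapped. Eif5a, the hypusine-carrying factor that helps peptide bonds form, had a mean signal of 77.0 and was not tested.

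Eif6, which keeps the large ribosomal subunit from joining early and also takes part in its maturation, rose. It had 1613, 1502, 1466 and 1766 on the confluent arrays and 2440, 2191, 2382 and 2527 on the subconfluent arrays. The groups were apart by more than the spread within either, with means of 1587 ± 135 and 2385 ± 142 (SD, n = 4 each), a 1.49-fold change. The log2 difference was 0.57 ± 0.14 (SE, adjusted p = 0.0335, and 0.0110 with the experiment block). It lay between 0.51 and 0.68 in the 4 experiments and was 0.58 in chip lot A and 0.72 in chip lot C. The call was lost without any array but Confluent 2, with an adjusted p of up to 0.0966.

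**Figure D3:**
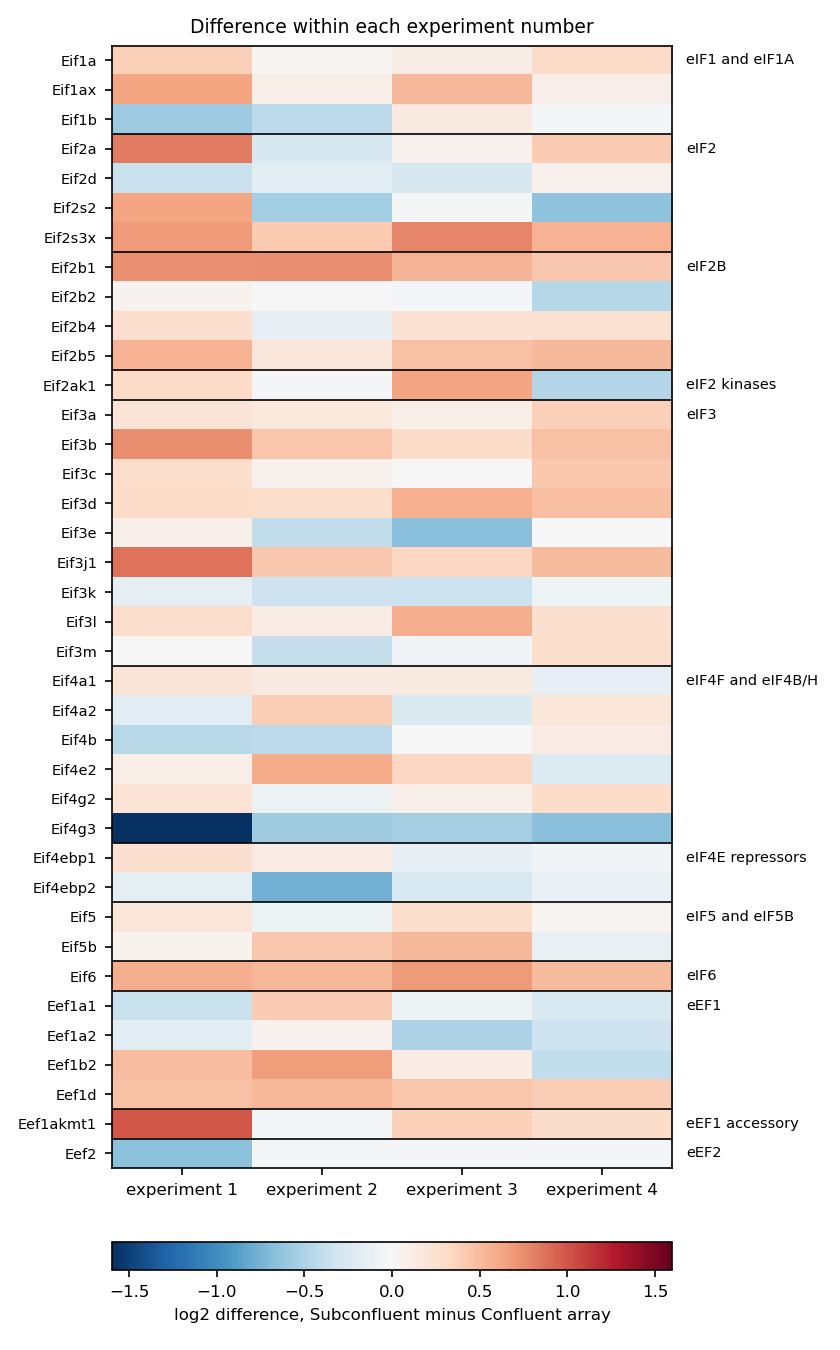
Subconfluent minus confluent difference on the log2(signal + 50) scale in each of the 4 experiments (columns) for each of the 38 tested members (rows, by complex), with red for higher and blue for lower in subconfluent cells. Eif6 runs from 0.51 to 0.68 and Eef1d from 0.40 to 0.53, while Eif4g3 is blue throughout, from -1.59 in experiment 1 to -0.54.

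Of the elongation factors, 6 of 8 were tested and 0 rose or fell in the unpaired fit, with 1 at an unadjusted p under 0.05. Eef1a1, the general carrier of aminoacyl-tRNAs, had 35052, 37819, 40168 and 32583 on the confluent arrays. On the subconfluent arrays it had 27460, 50138, 38070 and 27605, a wider spread around a like mean (-0.07 ± 0.19, adjusted p = 0.875). Eef1a2, its paralogue of muscle and nerve, gave -0.24 (adjusted p = 0.721).

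Eef1d, the delta subunit of the exchange factor eEF1B, had 3701, 4884, 3781 and 3444 against 5159, 7051, 5162 and 4558. The groups overlapped, since the arrays of experiment 2 were the highest of both. In each experiment it was higher in subconfluent cells by 0.40 to 0.53 on the log2 scale (0.46 ± 0.17, adjusted p = 0.125, and 0.0175 with the block). Without experiment 3 the block fit gave an adjusted p of 0.0740. Eef1b2, the beta subunit, gave 0.22 (adjusted p = 0.738), and Eef1g, the gamma subunit, was below the minimum with a mean of 5.69.

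Eef1akmt1, which methylates a lysine of eEF1A, had 272, 464, 450 and 495 against 591, 454, 601 and 616. Subconfluent 2 lay within the confluent range (0.41 ± 0.20, adjusted p = 0.213). Eef2, the translocation factor, had 13050, 11353, 14929 and 10200 against 8231, 11130, 14632 and 10029. It was lower in subconfluent cells in all 4 experiments, by little except in experiment 1 (-0.19 ± 0.19, adjusted p = 0.596). Its kinase Eef2k had a mean signal of 95.3 and was not tested. The median over the tested elongation factors was 0.08, against 0.14 over the tested initiation factors, and this difference was not tested.

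The genes below the signal minimum had mean signals from 5.69 to 154. With no filter on low signals their adjusted p-values ran from 0.351 to 0.939. For the 6 members with several tested probe sets, all sets of a gene had the same sign.

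Partners of the factors outside the set were read from related lists. Over all tested genes 2.83% rose and 4.39% fell in the unpaired fit, and 10.1% and 12.1% with the block. An unadjusted p under 0.05 in the unpaired fit was found for 27.2% of them. Of 10 tested partners, 1 fell and 0 rose, and 5 had an unadjusted p under 0.05. Pdcd4, which binds eIF4A and blocks its helicase, had 1835, 2153, 2569 and 2230 on the confluent arrays and 806, 692, 906 and 521 on the subconfluent arrays. All subconfluent signals were below all confluent ones, and the difference of -1.54 ± 0.19 (SE, adjusted p = 0.00203, and 0.000734 with the block) was larger in size than that of any tested member. It was -1.14 in chip lot A and -1.83 in chip lot C. It stayed called with each array left out (adjusted p of up to 0.0110) but not within chip lot C alone, where 1 array stood against 2. With the block 2 partners fell and 2 rose. Beside Pdcd4 these were Paip2, which holds the poly(A)-binding protein (-0.72, adjusted p = 0.0689, and 0.00917 with the block), Dohh, an enzyme of hypusine synthesis (0.62, 0.0890 and 0.0175, and 0.0388 with the chip lot as a block), and Pabpc4, a poly(A)-binding protein (0.47, 0.191 and 0.0475). Those 3 were named after their values were seen.

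Among 5 tested genes of termination and ribosome recycling, 1 rose and the median difference was 0.52. Abce1, the ATPase that splits ribosomes after termination, had 1795, 2648, 2386 and 2164 against 4408, 3756, 3087 and 3094, without overlap (0.66 ± 0.18, adjusted p = 0.0483, and 0.0232 with the block). Its call was lost without any array but Confluent 2 (adjusted p of up to 0.112). It was also lost with the chip lot as a block (0.0659), with no signal filter (0.0740), with quantile normalization, with the scale factor as a covariate and within chip lot C. The difference was 1.27 in chip lot A and 0.37 in chip lot C. With the block 3 rose, the others being the release factor genes Gspt1 (0.52, adjusted p = 0.199, and 0.0144 with the block) and Etf1 (0.57, 0.206 and 0.0111), named after their values were seen.

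In the integrated stress response, the program that phosphorylated eIF2 sets off, 0 of 8 tested genes passed in the unpaired limma fit and 2 had an unadjusted p under 0.05. The smallest p-values were those of Nupr1, a stress-induced chromatin protein (-0.77, adjusted p = 0.0904, and 0.00874 with the block), and Dnajc3, an inhibitor of the eIF2 kinases (-0.32, adjusted p = 0.161). With the block 1 fell, Nupr1. Of 8 tested genes of mTORC1 signalling, the pathway that phosphorylates the eIF4E repressors, 0 passed and 1 had an unadjusted p under 0.05. Akt1, a kinase upstream of it, gave 0.53 (adjusted p = 0.153, and 0.0451 with the block), and Tsc1, a repressor of the pathway, -0.33 (adjusted p = 0.288). Of 4 tested mitochondrial translation factors, 0 passed and 1 had an unadjusted p under 0.05. The elongation factor Gfm1 gave 0.58 (adjusted p = 0.0965), and it passed with the chip lot as a block (0.0343). It was 1.23 in chip lot A and 0.68 in chip lot C. The initiation factor Mtif2 gave -0.43 (adjusted p = 0.320).

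**Figure D4:**
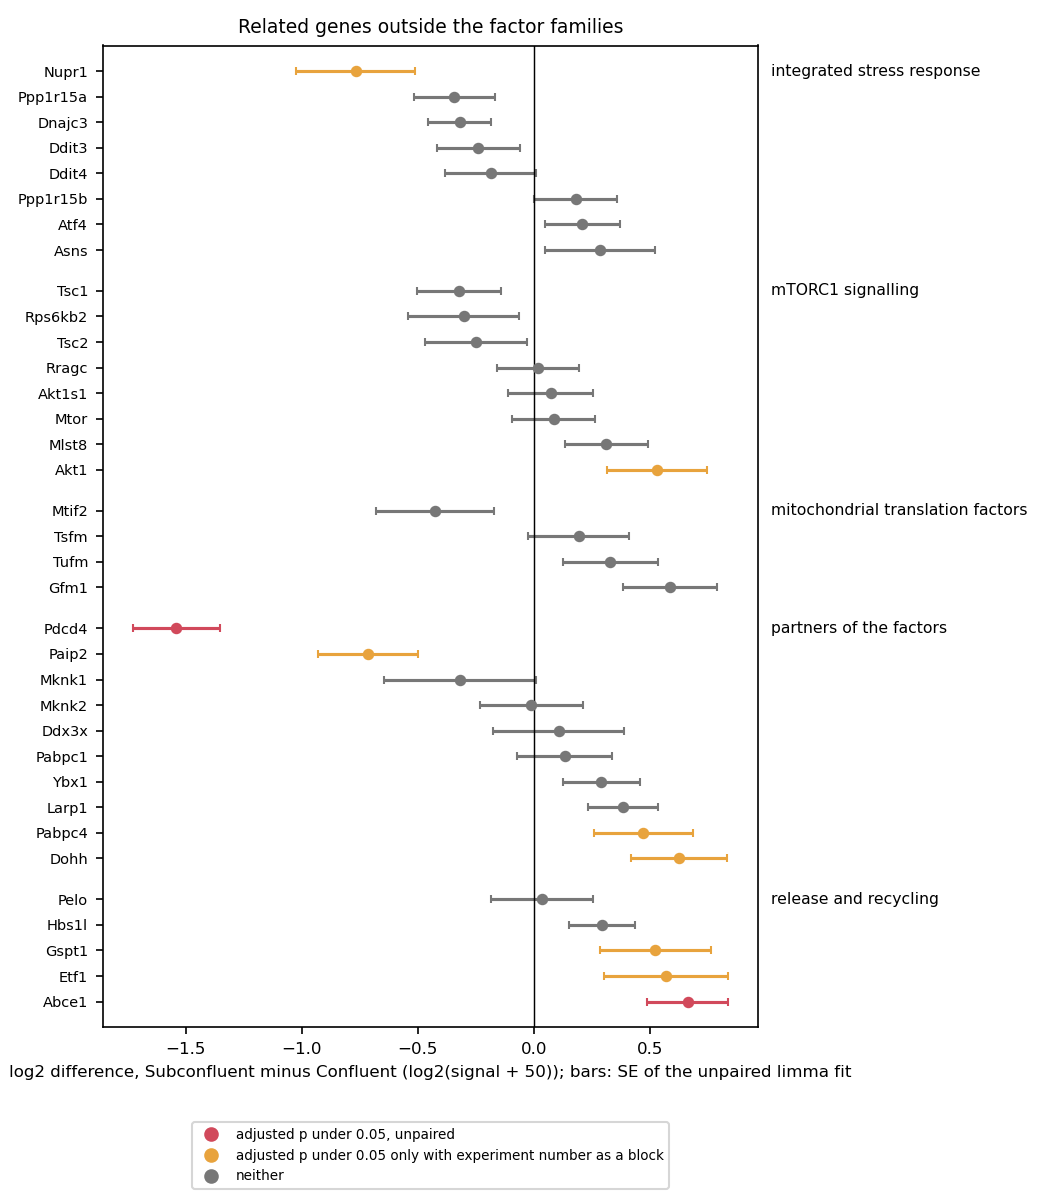
Subconfluent minus confluent difference on the log2(signal + 50) scale with SE for the tested genes of 5 related lists (partners, termination and recycling, integrated stress response, mTORC1 signalling and mitochondrial factors), coloured by whether they passed unpaired, only with the experiment block, or in neither fit. Pdcd4 at -1.54 has the lowest value plotted, and Abce1 at 0.66 passed in the other direction.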

How the data were processed

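The deposited signals, 1 linear value per probe set, come from the Affymetrix statistical algorithm, which the authors ran with a target of 500 for every array, per the labels. The software version was not given in the sources used here. The mean of each array without its outer 2% at either end was 500 to the nearest whole number, so no further normalization was applied. Of 12488 probe sets, 66 controls were left out, and 1 symbol was given for 10833 of the rest. One further probe set, for Eif4a3, had several symbols and was not a member.

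Those averaging 200 or more were tested on log2(signal + 50) with limma 3.58.1 (R 4.3.3, a two-sided moderated test with a variance trend), Benjamini-Hochberg adjusted over 6007 probe sets at a threshold of 0.05. The added 50 shrinks the fold of low signals. A gene was represented by its brightest probe set on average. The number of arrays limits the precision. The script was checked on simulated data. Arrays of the same experiment number, as the labels give it, correlated at 0.486, 0.357, 0.516 and 0.348 in their deviations from the group means, and the highest correlation across numbers was 0.0681, so the number was used as a replicate block in a second fit. Values by array are given for members that pass either fit and, in each complex, for the highest signal and the largest difference. Of each related list the genes that passed, or else the 2 with the smallest p, are named. The members and lists were chosen with earlier results of these data known. Alternatives were the chip lot as a block or held fixed, other pseudocounts, filters and normalizations, and arrays or experiments left out. Python 3.11.15 with pandas 2.3.3 and matplotlib 3.10.9 made tables and plots. Promoter and gene names came from RefSeq tables, which held all 49 gene identifiers. Detection calls were not used here.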

Additional observations from a re-analysis of the deposited data

Results flagged for a closer look

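In 78 groups of 4 signals, 6 held an array far from the other 3, where chance gives about 1 in 20. The gap over range was taken on the same log2 scale as the differences, so it is not that of the signals printed here. Eef1a2, the eEF1A paralogue of muscle and nerve, had Confluent 2 at 157 against 439 to 530 (gap over range 0.835) and Subconfluent 2 at 166 against 360 to 394 (0.889), so both arrays of experiment 2 were low. Eef1akmt1 had Confluent 1 at 272 against 450 to 495 (0.838) and Subconfluent 2 at 454 against 591 to 616 (0.862). Eif2b4 had Confluent 2 at 897 against 627 to 664 (0.840). Eif2b5 had Subconfluent 1 at 464 against 722 to 788 (0.830), and Confluent 1 was the lowest of its group as well.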

How the results depend on the processing

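Members higher in subconfluent cells numbered 3 in the unpaired fit. They numbered 8 with the replicate block, 1 with no signal filter, 0 within chip lot C, 0 to 3 with 1 array left out, and 0 to 8 with the replicate block and 1 experiment left out. Members lower numbered 0, and 1 with the replicate block or the chip lot as a block, 0 with 1 array left out, and 0 to 1 with the replicate block and 1 experiment left out. Both counts stayed at 3 and 0 with a filter of 500, quantile normalization, median centring, a pseudocount of 1 or 150, plain probe sets, the mean over probe sets or the scale factor as a covariate. Over all probe sets 165 were higher, against 597 with the replicate block, 368 with the chip lot as a block, 72 with no filter, 2 within chip lot C, 18 to 342 with 1 array left out, and 223 to 652 with the replicate block and 1 experiment left out. Lower were 244, against 679 with the replicate block, 136 with no filter, 3 within chip lot C, 80 to 345 with 1 array left out, and 353 to 618 with the replicate block and 1 experiment left out. Within chip lot C, where 1 array stood against 2, the fit had fewer samples. Otherwise the cause was not tested. The median difference of the members, 0.14, was 0.24 within chip lot A, which has no test. No called member changed sign. Values that had not passed changed sign 34 times, in 12 members, so their direction is not firm, and so did the medians of eEF1, eIF2, the eIF4E repressors and eIF4F. Signals near background limit what Eif4g3 and the second probe set of Eif4e2 can show.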
